A study of Mus musculus with 2 samples.

Results

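Described here are 59 mouse genes of glucose and lactate carriage, glycolysis, the entry of pyruvate into the citrate cycle (pyruvate dehydrogenase, its kinases and pyruvate carboxylase), the pentose phosphate pathway and the citrate cycle. The genes were taken by symbol, and all 59 were found among the 18722 loci of the deposited table, where both libraries have counts of reads beside FPKM, a level scaled to gene length and library size. Testes of male C57BL/6J mice were sequenced in 2 libraries at 16 weeks of age. One is named shDmrt1 with the genotype Dmrt1 knockdown, and the other shControl with the genotype WT. By these names both testes received a short hairpin RNA, but the labels do not say how the hairpins were delivered, which cells took them up, or how many testes or animals were pooled. The series title puts the comparison in the setting of testicular immune homeostasis, Spry1 and NF-κB signalling.

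Glycolysis splits glucose into pyruvate in the cytosol and yields ATP without oxygen, and lactate dehydrogenase turns pyruvate into lactate or back. The pentose phosphate pathway branches off at glucose 6-phosphate and gives NADPH and ribose, while the pyruvate dehydrogenase complex hands pyruvate to the citrate cycle in mitochondria. In the testis Sertoli cells are known for making lactate, which germ cells burn. Leydig cells use NADPH for steroid synthesis, and activated myeloid cells are known for high glycolytic rates.

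The knockdown library held 24594371 counts and the control library 17846426. There was no replicate library, so there is no test between the groups, no spread between animals and no p-value, and every value below compares 2 libraries. Counts were scaled by TMM factors, and the log2 ratio of knockdown over control is given with a 95% Clopper-Pearson interval of the counts, which covers counting error only. The targeted gene Dmrt1 had 39 counts in the knockdown and 852 in the control library, a log2 ratio of -4.45 (-4.97 to -4.01). Both are labelled as testis, yet few germ cell marker transcripts were found in either. The 9 germ cell markers examined, among them the protamine genes, summed to 2.84 scaled CPM (counts scaled to library size) in the knockdown and 64.5 in the control library, with all 8 measured ones lower and Stra8 and Acrv1 at 0 in the knockdown. Other cell type markers moved as well. All 8 measured macrophage and monocyte markers were higher, summing to 5869 and 423 CPM in the knockdown and control libraries, and all 9 neutrophil markers were higher, summing to 1113 and 12.2 CPM, with S100a8 and Retnlg at 0 in the control. The 5 fibroblast markers, all higher, summed to 9353 and 967 CPM, and the 5 endothelial markers, all higher, to 387 and 90.2 CPM. All 7 Leydig markers were lower, at 280 CPM in the knockdown and 20053 CPM in the control library, as were all 9 Sertoli markers, at 179 and 1058 CPM. Of 4 measured red blood cell markers 2 were higher and 2 lower (279 and 60.5 CPM in sum), and of 3 measured skeletal muscle markers 1 was higher and 1 lower (3.74 and 3.51 CPM), with the unmeasured Myh4 and Mb at 0 in the knockdown. In such bulk libraries fewer cells of a type and less RNA per cell cannot be told apart, and the part of these marker shifts in the results below was not tested.

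The pathways went different ways. Glycolysis, the pentose phosphate pathway and most carriers were higher in the knockdown library, whereas most pyruvate entry genes and 8 of the 15 citrate cycle genes were lower. To be called higher or lower here, a gene needed a 1.5-fold ratio or more together with an interval clear of 1. By that rule 28 of the 59 members were higher (47.5%), against 29.7% of the 15104 loci with at least 1 CPM in a library. The 18 lower members made up 30.5%, against 32.5% of all loci, and 13 members were neither. Scaled by library totals in place of TMM, 20 members were higher and 21 lower, beside 20.6% and 45.6% of all loci. That scaling lowers every ratio by a median of 0.44 on the log2 scale, so ratios are best read against the median of all loci, which was -0.02 with TMM.

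Within glycolysis 18 of 23 members were higher and 3 lower, and the median log2 ratio was 1.29. Within the pentose phosphate pathway 5 of 7 were higher and none lower, around a median of 0.85. None of the 15 citrate cycle members was higher and 8 were lower (median -0.59), and the 9 pyruvate entry members held 2 higher and 5 lower ones (median -0.63). The difference between the glycolysis and citrate cycle medians was 1.88 on the log2 scale, and it does not depend on how the libraries were scaled. Of the 15, however, 4 are cytosolic or NADP-linked relatives. The 11 cycle enzymes alone had 5 lower members and a median of -0.26, which is 1.54 below that of glycolysis. Library totals left 14 higher and 3 lower glycolysis members and raised the lower citrate cycle members to 10. The summed scaled level of the glycolysis members was 12513 CPM in the knockdown and 4670 CPM in the control library, 2.68-fold higher. For the citrate cycle members it was 1545 CPM in the knockdown and 2563 CPM in the control library, 1.66-fold lower, and for the 11 cycle enzymes 1115 CPM in the knockdown and 1410 CPM in the control library, 1.26-fold lower.

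**Figure D1:**
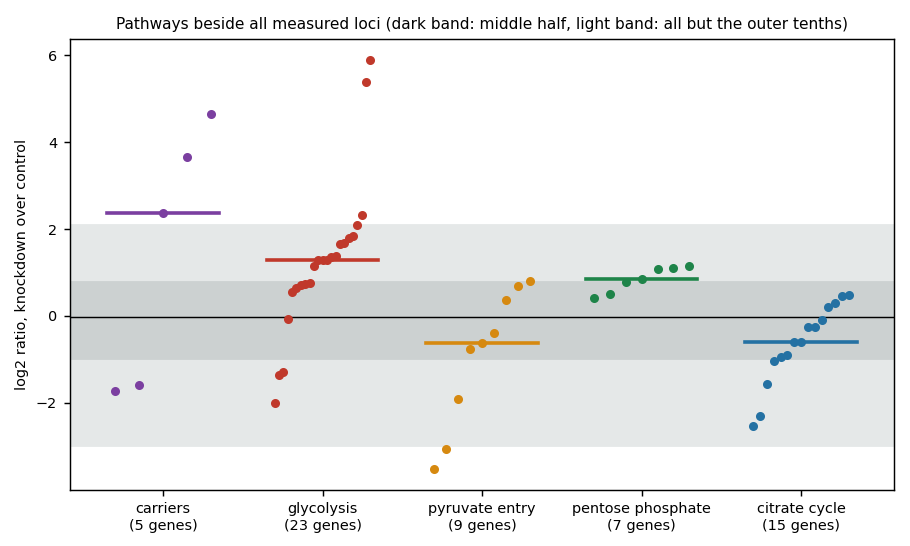
Log2 ratio of TMM-scaled counts, knockdown over control library (vertical axis), for each of 59 genes (points) by pathway, with the pathway median as a bar. The grey bands hold the middle 50% and 80% of 15104 loci and the black line their median of -0.02. The glycolysis median stands at 1.29 and the citrate cycle median at -0.59.

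Every member had at least 1 CPM in a library, and no member was at 0 counts. Member counts ran from 29 to 62553. The authors' deposited table, which holds an EBSeq comparison with thresholds of 2-fold and a false discovery rate of 0.01, calls 7 members up (10.5% of all loci are), 6 down (14.2% of all loci are) and 46 normal. The up calls are Slc2a1, Slc2a6, Slc16a3, Hk3, Eno2, Pgk1 and Ldha, and the down calls are Ldhb, Pdk2, Pdk4, Pcx, Suclg2 and Idh1. As these calls also rest on 1 library per group, they hold no spread between animals.

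**Figure D2:**
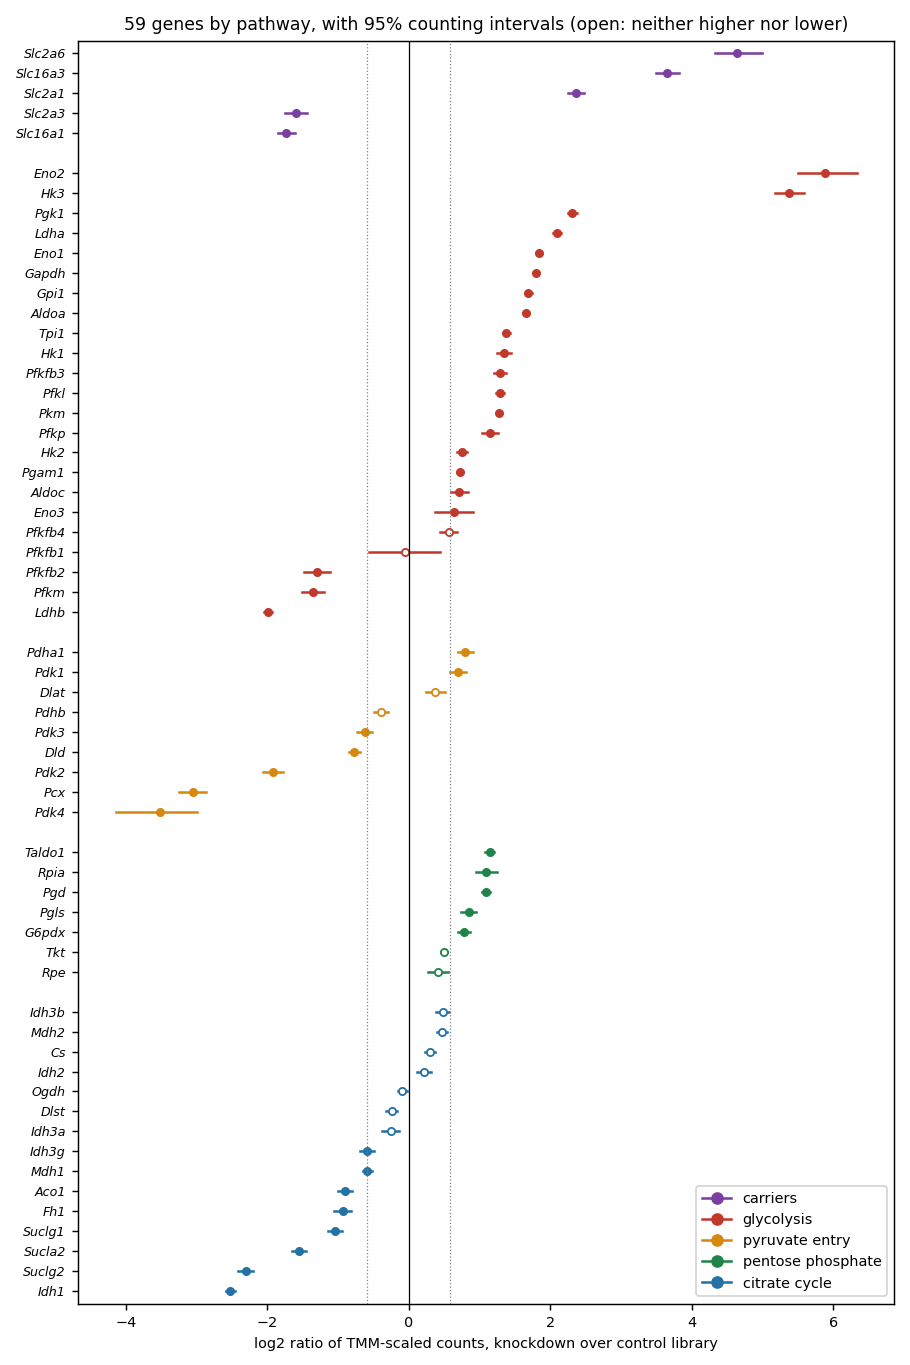
Log2 ratio of TMM-scaled counts, knockdown over control library (horizontal axis), of 59 genes by pathway, from the highest to the lowest within each. Bars are 95% counting intervals, dotted lines mark 1.5-fold and open symbols are genes that were neither higher nor lower. Eno2 at 5.89 and Hk3 at 5.38 are the highest, and Pdk4 at -3.52 and Pcx at -3.05 the lowest.

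Among the glucose carriers, 2 were higher and 1 lower in the knockdown library. Slc2a1, which encodes the widespread carrier GLUT1 (ENSMUSG00000028645, chromosome 4, 119108711 to 119137983 on GRCm38), had 3834 counts in the knockdown and 736 in the control library, or 74.1 and 13.8 FPKM. Its log2 ratio was 2.36 (2.25 to 2.48), 5.13-fold higher. Slc2a6, a carrier of lysosomal membranes known from macrophages (chromosome 2, 27021363 to 27027998), had 2041 counts in the knockdown and 80 in the control library, 64.7 and 2.52 FPKM. It was 25.0-fold higher, with a log2 ratio of 4.64 (4.33 to 4.99). Slc2a3, the high-affinity carrier GLUT3, went the other way, with 437 counts in the knockdown and 1298 in the control library, 6.70 and 23.9 FPKM, a log2 ratio of -1.59 (-1.75 to -1.43). Per length, Slc2a3 was the most abundant of the 3 in the control library, holding 59.5% of their summed FPKM, and the least abundant in the knockdown library, at 4.60%. Slc2a1 and Slc2a6 held 50.9% and 44.5% of the knockdown sum.

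The lactate carriers split in the same manner. Slc16a3 encodes MCT4, which exports lactate from glycolytic cells (ENSMUSG00000025161, chromosome 11, 120948480 to 120960868). It had 4504 counts in the knockdown and 352 in the control library, 168 and 14.0 FPKM, and was 12.6-fold higher (log2 3.66, 3.50 to 3.82). Slc16a1, whose product MCT1 carries lactate either way (chromosome 3, 104638668 to 104658462), had 778 counts in the knockdown and 2548 in the control library, 10.8 and 36.7 FPKM. Slc16a1 was 3.32-fold lower (log2 -1.73, -1.85 to -1.62). Slc16a3 held 94.0% of the FPKM of the pair in the knockdown library, against 27.6% in the control library.

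Lactate dehydrogenase showed the same exchange between its 2 subunit genes. Ldha encodes the M subunit, known for favouring lactate formation (ENSMUSG00000063229, chromosome 7), and Ldhb the H subunit, known for favouring lactate use (ENSMUSG00000030246, chromosome 6). Ldha had 13923 counts in the knockdown and 3225 in the control library, 534 and 121 FPKM, and was 4.26-fold higher (log2 2.09, 2.03 to 2.15). Ldhb had 2622 counts in the knockdown and 10276 in the control library, 122 and 469 FPKM, and was 3.97-fold lower (log2 -1.99, -2.05 to -1.93). Their summed FPKM hardly differed, at 656 in the knockdown and 590 in the control library, a ratio of 1.11, while the Ldha share was 81.4% in the knockdown and 20.4% in the control library. As a share of reads of the pair, Ldha held 84.2% in the knockdown (exact 95% interval 83.6 to 84.7%) and 23.9% in the control library (23.2 to 24.6%). Near-identical copies of Ldha (2) and Ldhb (1) exist in the annotation, so some reads could have been shared between copies.

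The promoters of these opposed pairs are shown because their genes moved apart in one library pair, and that of Pgk1 because its ratio was the highest among glycolytic steps that hold 1 member. Each is the stretch of 250 bases before a RefSeq transcription start on GRCm38.p6, written 5′ to 3′ along the gene. Capitals mark ACGTG, the core letters of hypoxia response elements, on either strand. Where CACGTG, an E-box, occurs, it holds that core on both strands.
Ldha, chr7:46845554-46845803, plus strand: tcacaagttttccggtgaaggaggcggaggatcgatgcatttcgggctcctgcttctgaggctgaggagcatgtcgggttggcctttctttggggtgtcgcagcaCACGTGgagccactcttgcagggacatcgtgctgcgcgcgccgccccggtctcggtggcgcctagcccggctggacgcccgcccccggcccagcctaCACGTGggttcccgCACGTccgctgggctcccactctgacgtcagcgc
Ldhb, chr6:142507958-142508207, minus strand: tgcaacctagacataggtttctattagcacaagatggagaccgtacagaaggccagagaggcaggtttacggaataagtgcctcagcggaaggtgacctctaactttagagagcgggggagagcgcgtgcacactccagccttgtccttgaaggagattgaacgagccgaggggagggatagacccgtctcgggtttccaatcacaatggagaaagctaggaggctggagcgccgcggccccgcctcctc
Slc16a3, chr11:120948817-120949066, plus strand: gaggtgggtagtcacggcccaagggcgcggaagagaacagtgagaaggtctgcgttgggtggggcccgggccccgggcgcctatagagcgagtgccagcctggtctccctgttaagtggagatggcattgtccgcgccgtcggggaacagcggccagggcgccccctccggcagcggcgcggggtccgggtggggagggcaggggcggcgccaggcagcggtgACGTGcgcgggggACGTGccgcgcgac
Slc16a1, chr3:104638414-104638663, plus strand: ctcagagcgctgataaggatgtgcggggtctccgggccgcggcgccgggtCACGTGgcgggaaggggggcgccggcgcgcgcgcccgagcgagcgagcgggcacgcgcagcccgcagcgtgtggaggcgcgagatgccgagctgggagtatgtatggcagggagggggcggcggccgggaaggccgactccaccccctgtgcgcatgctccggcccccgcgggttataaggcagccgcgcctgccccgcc
Pgk1, chrX:106186850-106187099, plus strand: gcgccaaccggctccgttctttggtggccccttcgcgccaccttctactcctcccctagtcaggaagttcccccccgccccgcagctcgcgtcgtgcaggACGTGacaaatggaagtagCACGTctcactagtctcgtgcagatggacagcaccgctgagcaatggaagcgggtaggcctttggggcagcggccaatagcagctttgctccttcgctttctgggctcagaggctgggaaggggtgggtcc

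The Ldha window holds CACGTG at 2 places and a further core starting 34 bases before the start, and the Ldhb window holds no core. The Slc16a3 window holds the core 27 and 14 bases before the start, and the Slc16a1 window holds 1 CACGTG, starting 200 bases before it, so a carrier that was higher and one that was lower both had the letters. The Pgk1 window holds the core 150 and 131 bases before the start. A second start of Ldha has a window without the core. Over all members, 57 of 59 had windows, and 20 of the 57 (35.1%) held the core in at least 1 window. The share was 18.5% of the 27025 genes with a window and 24.1% of the 11075 measured ones. By window it was 34.5% of 84 among the members, 20.6% of the 14103 windows of measured loci and 16.6% of the 32851 windows of the table. Some member windows overlap and hold the same core, as several of Ogdh do. The longer CACGTG was found in 14.0% of the members, 9.53% of the measured genes and 6.86% of all genes. The median GC content was 60.0% over the windows of the members, 59.2% over those of measured loci and 52.4% over all windows. Of the higher members 10 of 28 held the core and of the lower members 8 of 17, while none of the 7 pentose phosphate genes did. Among opposed pairs not shown, Pfkl (higher) had no core and Pfkm (lower) had it, while Pfkfb3 (higher) and Pfkfb2 (lower) both had it. These are matches of letters only.

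Hexokinases, which trap glucose as its 6-phosphate, were all higher in the knockdown library, but by very different amounts. Hk3 is a hexokinase known mainly from blood cells (ENSMUSG00000025877, chromosome 13, 55005985 to 55021385). It had 8675 counts in the knockdown and 205 in the control library, 152 and 3.54 FPKM, and was 41.6-fold higher (log2 5.38, 5.18 to 5.59). Hk1, the common form bound to mitochondria, had 3027 counts in the knockdown and 1171 in the control library (log2 1.35, 1.25 to 1.45). Hk2, the insulin-regulated form of muscle and growing cells, had 4731 and 2777 counts in the knockdown and control libraries, 45.2 and 25.6 FPKM (log2 0.75, 0.68 to 0.82), and with library totals it fell short of 1.5-fold at 0.31. Hk2 held the largest share of hexokinase FPKM in the control library, 50.9%, and Hk3 in the knockdown library, 64.8%, where the control library had 7.04%. The myeloid markers given above were higher in the same library, as were the fibroblast and endothelial ones. Their part in the hexokinase ratios was not tested.

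Of the 7 genes of the upper steps, 6 were higher. Gpi1, which turns glucose 6-phosphate into fructose 6-phosphate, had 12963 counts in the knockdown and 3966 in the control library (log2 1.69). Aldoa, the main aldolase, had 42381 counts in the knockdown and 13210 in the control library (log2 1.66, 1.63 to 1.69), 1686 and 523 FPKM, and its sister Aldoc 1579 and 948 counts (log2 0.72, or 0.27 and neither with library totals). Tpi1, which interconverts the triose phosphates, had 13330 counts in the knockdown and 5055 in the control library (log2 1.38). Aldoa made up 97.6% of aldolase FPKM in the knockdown and 95.7% in the control library, so the make-up of that step differed little. Phosphofructokinase, the committed step, differed more in its make-up. The liver-type gene Pfkl had 7616 counts in the knockdown and 3077 in the control library, 110 and 46.3 FPKM (log2 1.29, 1.23 to 1.35), and the platelet-type gene Pfkp 1959 and 870 counts (log2 1.15). The muscle-type gene Pfkm had 497 counts in the knockdown and 1251 in the control library, 8.94 and 21.4 FPKM (log2 -1.35, -1.50 to -1.20). Its share of phosphofructokinase FPKM was 5.51% in the knockdown and 26.4% in the control library. Exons of Pfkp overlap those of Pitrm1 on the other strand by up to 748 bases, and the sources used here do not give which strand was counted.

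The Pfkfb genes encode enzymes that make and break fructose 2,6-bisphosphate, an activator of phosphofructokinase. Pfkfb3, the form with the strongest kinase side, had 3581 counts in the knockdown and 1442 in the control library, 39.4 and 16.0 FPKM (log2 1.29, 1.20 to 1.38). Pfkfb2, the heart-type form, had 348 counts in the knockdown and 844 in the control library, 5.51 and 13.7 FPKM (log2 -1.30, -1.48 to -1.12). Between those extremes lay Pfkfb4 with 1452 and 970 counts (log2 0.56, or 0.84 and past 1.5-fold by FPKM) and Pfkfb1 with 70 and 72 counts (log2 -0.06, -0.56 to 0.43), both short of 1.5-fold by counts. Pfkfb3 held 53.4% of the FPKM of the 4 genes in the knockdown and 34.3% in the control library, and Pfkfb2 held 7.47% and 29.4%.

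All 7 genes of the lower steps were higher. Gapdh, which oxidises glyceraldehyde 3-phosphate, was the most abundant member per length, with 2606 FPKM in the knockdown and 736 FPKM in the control library. Its counts were 62553 in the knockdown and 17735 in the control library (log2 1.80, 1.77 to 1.82), although the gene is often used as a constant reference. Pgk1, which makes the first ATP of the pathway (chromosome X), had 13835 counts in the knockdown and 2745 in the control library, 455 and 90.5 FPKM, and was 4.97-fold higher (log2 2.31, 2.25 to 2.37). Pgam1, the mutase of the next step, was less shifted, with 14405 and 8590 counts (log2 0.73), and with library totals it fell short of 1.5-fold. Pkm, the pyruvate kinase gene, had 33571 counts in the knockdown and 13631 in the control library (log2 1.28), and the counts do not separate its M1 and M2 splice forms.

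Enolase, the step before pyruvate kinase, included the member with the highest ratio. Eno2, known as neuron-specific enolase (ENSMUSG00000004267, chromosome 6), had 2975 counts in the knockdown and 49 in the control library, a log2 ratio of 5.89 (5.50 to 6.34). By the deposited FPKM values, 60.7 in the knockdown and 2.05 in the control library, the log2 ratio was 4.82, the widest gap between counts and FPKM among the members at 1.07. Eno1, the common form, had 17610 counts in the knockdown and 4858 in the control library, 512 and 141 FPKM (log2 1.84, 1.79 to 1.88), and Eno3, the muscle form, 304 and 193 counts (log2 0.63, 0.37 to 0.90). Eno3 lost its call with library totals, upper quartile factors and FPKM (log2 0.19, 0.54 and 0.43). Eno1 still held 87.5% of enolase FPKM in the knockdown and 92.5% in the control library, with Eno2 at 10.4% and 1.35%. Eno1 has a near-identical gene, Eno1b, with 1679 counts in the knockdown and 1081 in the control library, 9.53% and 22.3% of those of Eno1, so the split of reads between both is uncertain. Gapdh has 78 near-identical copies in the annotation, of which 3 are in the table with 153 counts in the knockdown and 73 in the control library. In all, 12 members had such copies at 95% identity.

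**Figure D3:**
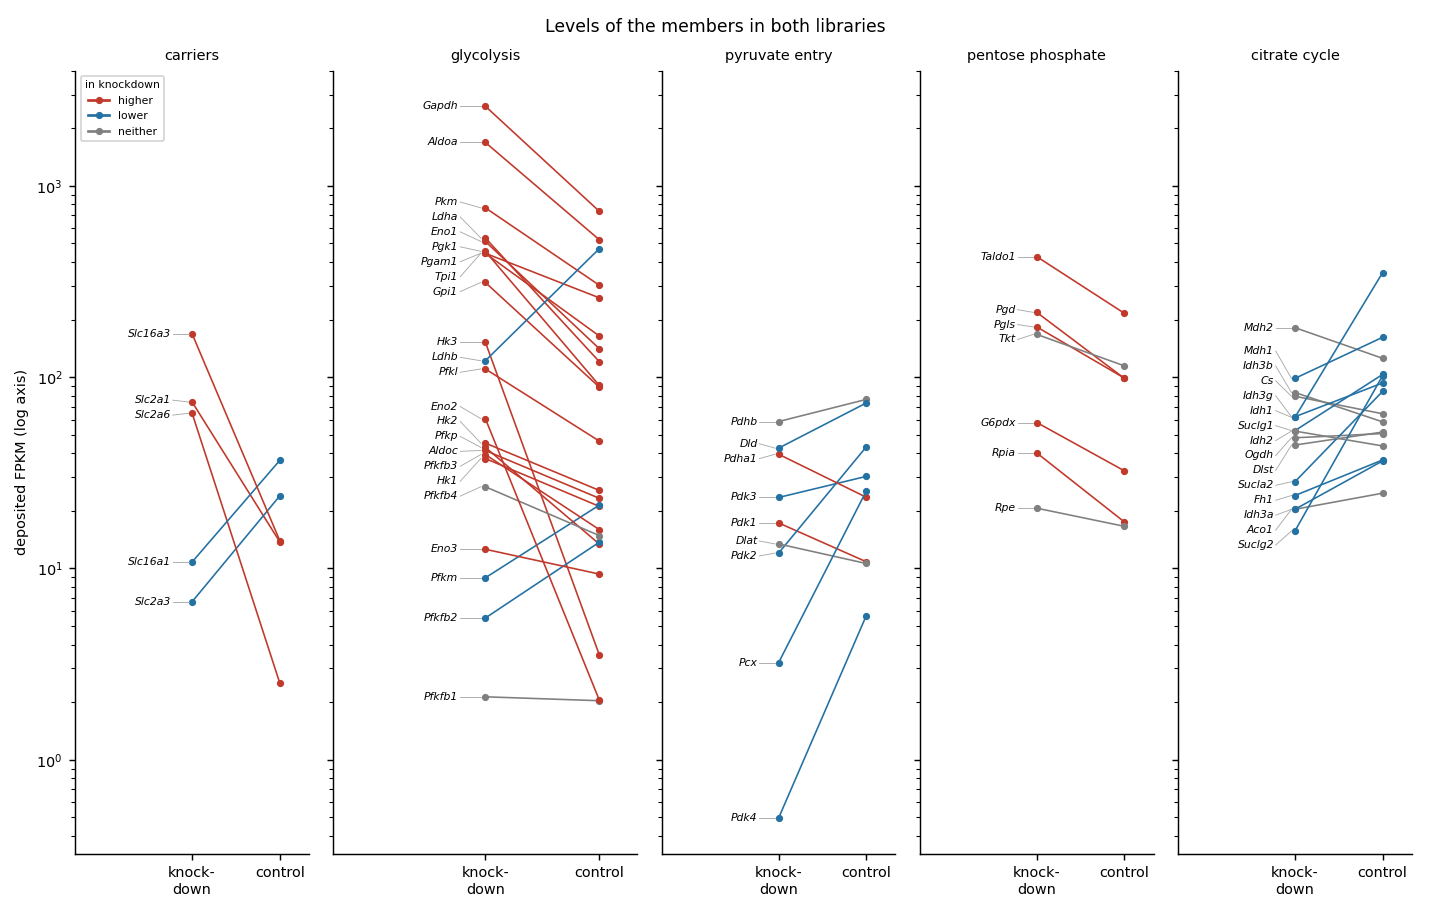
Deposited FPKM (log axis) of the members in the knockdown library (left points) and the control library (right points), joined per gene and coloured by direction. Glycolysis lines slope down to the control library for most genes, with Ldhb at 122 and 469 FPKM among the exceptions, while most citrate cycle lines are flat or run up to it.

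The genes of pyruvate carboxylase, pyruvate dehydrogenase and its kinases were more often lower than higher, at 5 and 2 of 9. Pcx, pyruvate carboxylase, which makes oxaloacetate from pyruvate (ENSMUSG00000024892, chromosome 19), had 263 counts in the knockdown and 2157 in the control library, 3.22 and 25.4 FPKM. It was 8.30-fold lower (log2 -3.05, -3.25 to -2.87). The pyruvate dehydrogenase kinases, which switch the complex off, were lower in 3 of 4 cases. Pdk4, the form induced by fasting and fatty acids (ENSMUSG00000019577, chromosome 6), had 29 counts in the knockdown and 334 in the control library, 0.496 and 5.66 FPKM, and was 11.5-fold lower (log2 -3.52, -4.15 to -3.00). Pdk2, the widespread form, had 489 counts in the knockdown and 1822 in the control library, 12.0 and 43.2 FPKM (log2 -1.92, -2.06 to -1.77), and Pdk3 1102 and 1676 counts, 23.5 and 30.3 FPKM (log2 -0.63, -0.74 to -0.51, or -0.36 by FPKM, short of 1.5-fold). Pdk1, known as induced by hypoxia, was higher, with 1631 counts in the knockdown and 990 in the control library, 17.3 and 10.8 FPKM (log2 0.70, 0.59 to 0.82), but at 0.26 with library totals it fell short of the rule. In FPKM shares, Pdk2 led the control library with 48.0% and Pdk3 the knockdown library with 44.1%.

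The 4 member genes for subunits of pyruvate dehydrogenase did not move together. Pdha1, the first catalytic subunit, had 2151 counts in the knockdown and 1219 in the control library, 39.5 and 23.6 FPKM (log2 0.80, 0.70 to 0.90), and its partner Pdhb 1410 and 1823 counts (log2 -0.39). Dlat, the acetyltransferase core, had 1013 and 770 counts, 13.4 and 10.6 FPKM (log2 0.38, 0.24 to 0.51), and Dld, the dehydrogenase shared with the oxoglutarate complex, 1945 counts in the knockdown and 3271 in the control library (log2 -0.77, -0.85 to -0.69). Pdha1 was above and Dld below 1.5-fold, and the other pair was neither. With library totals Pdha1 was no longer higher (0.36) and Pdhb was lower (-0.83). Exons of Pdha1 overlap those of Map3k15 on the other strand by up to 425 bases. Such overlaps with another gene were found for 19 members, 16 of them on the other strand. They include Rpe with Kansl1l on the other strand (558 bases), and Pkm (454 bases) and Pgls (404 bases) on the same strand.

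With TMM scaling all 7 pentose phosphate members had ratios above 1, within a narrow range of 0.41 to 1.14 on the log2 scale. The list as a whole thus stood between glycolysis and the citrate cycle. The oxidative steps, which make NADPH, were all higher. G6pdx, their first enzyme, had 3182 counts in the knockdown and 1826 in the control library (log2 0.78, 0.70 to 0.86). Pgls, the lactonase, had 1891 counts in the knockdown and 1037 in the control library (log2 0.85), and Pgd, the second NADPH-making enzyme, 8543 and 3956 counts, 218 and 98.4 FPKM (log2 1.09, 1.04 to 1.15). Of the non-oxidative steps, which recycle pentoses, Taldo1 had 6121 counts in the knockdown and 2729 in the control library, 426 and 216 FPKM (log2 1.14, 1.08 to 1.21) and Rpia 1123 and 518 counts, 40.1 and 17.5 FPKM (log2 1.10, 0.94 to 1.25). Tkt, transketolase, with 10294 and 7187 counts (log2 0.50), and Rpe, with 946 and 702 counts (log2 0.41), fell short of 1.5-fold. With library totals 3 of the 7 stayed higher, and G6pdx and Pgls did not. By that scaling Tkt was at 0.06 and Rpe at -0.03, so not all ratios stayed above 1. The summed level was 1521 CPM in the knockdown and 863 CPM in the control library, 1.76-fold higher.

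By the 1.5-fold rule 7 citrate cycle members were neither and 8 were lower. Their log2 ratios were graded from 0.48 to -2.52, so the division comes from the rule. Cs, citrate synthase, which opens the cycle, had 4298 counts in the knockdown and 3440 in the control library, 79.4 and 64.3 FPKM (log2 0.30, 0.24 to 0.37), and Mdh2, mitochondrial malate dehydrogenase, which closes it, 4222 and 3009 counts, 181 and 125 FPKM (log2 0.47, 0.40 to 0.54). Ogdh and Dlst, of the oxoglutarate dehydrogenase complex, had 4042 and 2373 counts in the knockdown against 4253 and 2769 in the control library (log2 -0.09 and -0.24). These 4 were all neither, as were the isocitrate dehydrogenase subunits Idh3a, with 978 and 1152 counts (log2 -0.26), and Idh3b. The Idh3b counts were 2321 in the knockdown and 1644 in the control library, 83.1 and 58.4 FPKM (log2 0.48, 0.39 to 0.57). In contrast, Idh3g, with 1435 and 2129 counts, was just past the rule (log2 -0.59). With library totals Dlst and Idh3a also counted as lower.

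The succinyl-CoA ligase genes, whose enzyme makes GTP or ATP within the cycle, were the lowest of its mitochondrial steps. Suclg2, the GTP-forming beta subunit (ENSMUSG00000061838, chromosome 6), had 827 counts in the knockdown and 4038 in the control library, 15.7 and 102 FPKM, and was 4.95-fold lower (log2 -2.31, -2.42 to -2.20). Sucla2, the ATP-forming beta subunit, had 1009 counts in the knockdown and 2921 in the control library, 28.4 and 84.2 FPKM (log2 -1.55, -1.66 to -1.45), and Suclg1, their shared alpha subunit, 1102 and 2241 counts (log2 -1.04). All 3 were lower, and among the beta subunits Sucla2 held 64.4% of the FPKM in the knockdown and 45.3% in the control library. Fh1, fumarase, was lower with 921 counts in the knockdown and 1737 in the control library (log2 -0.94).

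Idh1, the cytosolic NADPH-making isocitrate dehydrogenase (ENSMUSG00000025950, chromosome 1), was the lowest of the list. It had 2653 counts in the knockdown and 15020 in the control library, 61.7 and 352 FPKM, and was 5.74-fold lower (log2 -2.52, -2.58 to -2.46). Its mitochondrial relative Idh2 had 1660 and 1412 counts (log2 0.21) and was neither. Idh1 made up 54.1% of the FPKM of the pair in the knockdown and 89.0% in the control library. Of the other cytosolic relatives, Aco1, also an iron sensor, had 1421 counts in the knockdown and 2617 in the control library (log2 -0.90), and Mdh1, of the cytosol, 3327 and 4938 counts, 98.5 and 162 FPKM (log2 -0.59, -0.65 to -0.53). Mdh1 held 35.2% of malate dehydrogenase FPKM in the knockdown and 56.3% in the control library. Leydig, germ cell and Sertoli markers were also lower in the knockdown library, by 71.7-, 22.7- and 5.91-fold in sum. The part of these marker shifts in the ratios of the list was not tested. By FPKM, Idh1 had the highest level of the list in the control library. In the knockdown library Mdh2, Mdh1, Idh3b and Cs had higher FPKM than Idh1, and Idh3g was barely above it at 62.1. Without Idh1 the summed level of the citrate cycle list had a log2 ratio of -0.38, in place of -0.73.

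**Figure D4:**
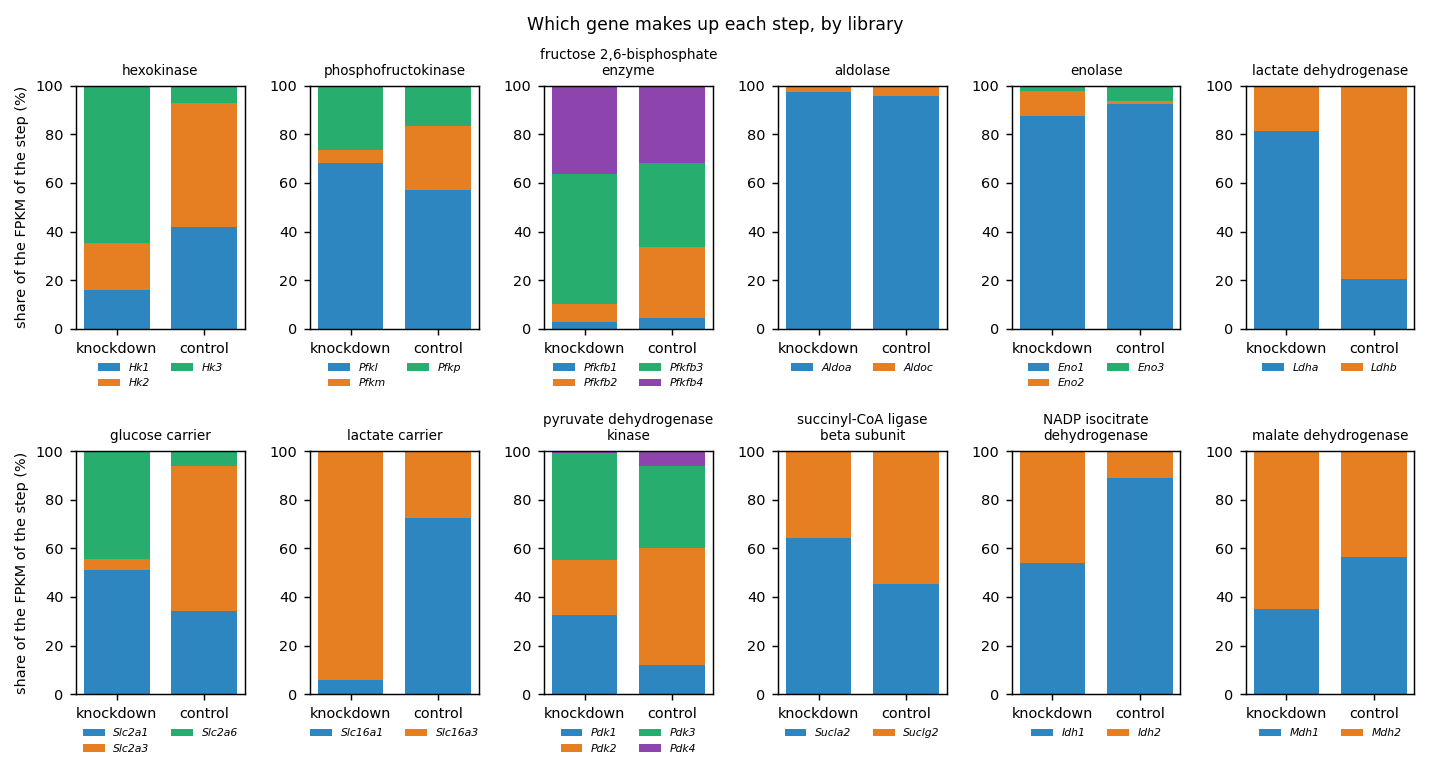
Share of the summed FPKM of a step (vertical axis, percent) held by each gene in the knockdown library (left bar) and the control library (right bar), for 12 steps with several genes. Shares within a library do not depend on scaling between libraries. The leading gene differs between libraries for hexokinase, the glucose and lactate carriers, lactate dehydrogenase, pyruvate dehydrogenase kinase, the succinyl-CoA ligase beta subunit and malate dehydrogenase.

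Of those 12 steps, the leading gene differed between the libraries in 7, while Pfkl, Pfkfb3, Aldoa, Eno1 and Idh1 led their steps in both. Differences between 2 ratios of the same step do not depend on scaling either. They came to 5.39 on the log2 scale for Slc16a3 over Slc16a1, 4.08 for Ldha over Ldhb, 3.95 for Slc2a1 over Slc2a3 and 2.64 for Pfkl over Pfkm. In the citrate cycle the difference was 2.73 for Idh2 over Idh1 and 1.06 for Mdh2 over Mdh1, with the mitochondrial form at the higher ratio in both.

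Other genes of these pathways, from lists also chosen with earlier results of these data known, gave a mixed picture. Their counts stand beside 29.7% of all loci higher and 32.5% lower. Up to 3 genes a list and direction are named by the size of the interval bound nearest 0, and Bsg, Mpc1, Tigar, Prps1, Pdp2, Sdha, Sdhb, Sdhc and Acly were added after their values were seen. Of 7 measured other sugar carriers, 1 was higher and 4 lower. Slc2a9, a urate carrier, had a log2 ratio of 2.77, while Slc2a12 and Slc2a8 were at -3.34 and -1.09. The fructose carrier gene Slc2a5 had 0 counts in the knockdown and 217 in the control library, at least 73.4-fold lower against a floor of 3 counts. The monocarboxylate carrier partner Bsg, which brings MCT1 and MCT4 to the membrane, was close to equal at 7443 counts in the knockdown and 6612 in the control library (log2 0.15), and the mitochondrial pyruvate carrier subunits Mpc1 and Mpc2 had log2 ratios of 0.45 and 1.03. Of 5 measured genes on that list 2, Mpc2 and the carrier gene Slc16a7 (log2 0.66), were higher and none lower. Slc16a7, however, was at 0.22 with library totals and at -0.12 by FPKM.

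Of 10 measured other glycolysis and gluconeogenesis genes, none was higher and 5 were lower. Fbp1, a fructose bisphosphatase of gluconeogenesis, had 29 counts in the knockdown and 522 in the control library (log2 -4.17, -4.78 to -3.65). Fbp2 had 1 and 184 counts (log2 -6.96, -12.86 to -5.05), and Tigar, which lowers fructose 2,6-bisphosphate, 264 and 1056 counts (log2 -2.02). Pgam2, the muscle mutase, was at -2.90. All 4 other pyruvate dehydrogenase genes were lower, namely the subunit gene Pdhx (log2 -1.65), the regulatory phosphatase subunit Pdpr (log2 -1.65) and the activating phosphatases Pdp2 (log2 -1.16) and Pdp1 (log2 -1.12). The kinases and the phosphatases of the complex were thus both mostly lower. Of 9 other pentose phosphate genes 1 was higher and 4 lower, the higher being Pgm1 (log2 1.45), and the ribose phosphate pyrophosphokinase genes Prps1 and Prps2 were at -1.21 and -1.28. The transketolase-like gene Tktl1 had 1 count in the knockdown and 45 in the control library (log2 -4.94), and Tktl2 had 0 and 53, at least 17.9-fold lower.

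Of 15 other citrate cycle genes, 4 were higher and 8 lower. The succinate dehydrogenase subunits went both ways, with Sdhd at 0.87, Sdhb at 0.64, Sdhc at 0.48 and Sdha at -0.82. Sdhc was neither, and by FPKM its log2 ratio was -0.27. Acod1, which diverts aconitate to itaconate in activated macrophages, had 14569 counts in the knockdown and 69 in the control library (log2 7.69, 7.36 to 8.06). Slc25a11, the oxoglutarate carrier gene, was at 1.08. Among the lower genes, Mdh1b was at -4.66 from 2 counts in the knockdown and 62 in the control library. Me1, the cytosolic malic enzyme that makes NADPH, had 1296 counts in the knockdown and 29478 in the control library (log2 -4.53, -4.61 to -4.45), Ogdhl 47 and 4315 counts (log2 -6.53) and Acly, which splits exported citrate, 3919 and 11276 counts (log2 -1.54). NADPH-making enzymes thus stood on both sides, with Pgd and G6pdx higher and Idh1 and Me1 lower.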

How the data were processed

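Total RNA of testis was sequenced, 1 library per group. TRIzol extraction preceded preparation with a kit for stranded mRNA, per the labels' protocols. Among tools, edgeR 3.12.1, DESeq, STAR 2.5.3a, Subread 1.5.1 with featureCounts and Trimmomatic 0.36 appear in the submitters' processing notes, as does mm10, without role or order. For every locus the authors deposited a count and an FPKM per library, besides their EBSeq comparison, per the file headers. FPKM per count was alike in both libraries (median ratio 1.00), and TMM-scaled library sizes are also nearly equal, so both scales are close.

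Counts were scaled over the whole table by TMM (edgeR 4.0.16, R 4.3.3), with factors of 0.858 for the knockdown and 1.17 for the control library. Log2 ratios used a prior count of 0.5, and Clopper-Pearson 95% intervals (scipy 1.17.1) cover counting error only. Whether duplicate reads were collapsed is not given in the sources used here. A floor of 3 counts per library, 0.142 CPM in the knockdown and 0.144 CPM in the control library, bounds genes at 0. Loci with at least 1 CPM by library totals in a library were measured. The procedure was tested on simulated counts with counting error only and known library sizes. That test cannot speak to spread between animals or to the scaling.

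The members and lists were chosen with earlier results of these data known. Genes given in full are the 3 with the highest and the 3 with the lowest interval bound nearest 0 per pathway and the leading gene of each step. Positions are from GENCODE M21 on GRCm38 and promoters from RefSeq on GRCm38.p6. Copies were transcripts of other genes at 95% identity over at least 50% of the shorter transcript and 200 bases (BLAST). Slc5a1, Lyz2 and Acta1, named on lists, are not analysed here, and some other list genes are not reported here. Alternatives were library totals, DESeq2 1.42.0 size factors, upper quartile factors, a prior count of 5, FPKM with a pseudocount of 0.1, other fold rules and filters, means and a regrouping.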

Additional observations from a re-analysis of the deposited data

How the results depend on the processing

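No paired analysis was possible because there is a single library on either side, so none could be omitted either. No called member changed sign under library totals, DESeq2 size factors, upper quartile factors, a prior count of 5 or FPKM. DESeq2 size factors and a prior count of 5 changed no call among the 59 members, upper quartile factors changed 1, FPKM 3 and library totals 11. With library totals the medians were 1.92 for carriers, 0.84 for glycolysis, -1.07 for pyruvate entry, 0.40 for pentose phosphate and -1.03 for citrate cycle members, 0 pyruvate entry members were higher in place of 2, and 3 pentose phosphate members in place of 5. Upper quartile factors gave a glycolysis median of 1.20 and FPKM a pyruvate entry median of -0.38. With the whole interval beyond 2-fold, 0 pyruvate entry members were higher and 3 lower. By that rule 2 pentose phosphate members were higher and 3 of the 15 citrate cycle members lower. Counts fall by the rule's construction, and 17.8% of all loci were higher and 20.8% lower. The share of lower citrate cycle members was thus close to that of all loci. Means were 1.47 for carriers and -0.93 for pyruvate entry. With the kinases counted in glycolysis and the other pyruvate entry genes in the citrate cycle, the glycolysis median was 1.15 with 6 lower, and the citrate cycle median -0.49 with 1 higher.

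The log2 ratio of the summed level was 1.19 for carriers, 1.42 for glycolysis, -0.51 for pyruvate entry, 0.82 for pentose phosphate and -0.73 for citrate cycle members. Library totals gave 0.75, 0.98, -0.95, 0.38 and -1.17 in that order. FPKM gave 1.84 for carriers, 1.45 for glycolysis, 0.91 for pentose phosphate and -0.67 for the citrate cycle. Without the member with the highest FPKM over both libraries (Slc16a3, Gapdh, Taldo1 and Idh1) the values were 0.58, 1.32, 0.75 and -0.38 in the same order. Leaving out the member with the highest scaled CPM, an alternative chosen after seeing the data, gave 1.00 for pentose phosphate (without Tkt) and -0.44 for pyruvate entry (without Dld), and the other 3 lists lost the same member. A filter at 5 CPM, and the point estimate without the interval, moved no pathway count or median beyond 1.5 times or the interval. Dropping the filter could move nothing, because every member had at least 1 CPM in a library. Depth was no limit for most members, and Pfkfb1 and Pdk4 had the fewest counts.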

Other observations

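The germ cell isozymes of these pathways were lower in the knockdown library, where no gene of the list had over 16 counts. All 7 measured genes on that list were lower, summing to 1.37 CPM in the knockdown and 82.0 CPM in the control library, most of it Ldhc, the sperm lactate dehydrogenase, with 2 counts in the knockdown and 1085 in the control library (log2 -8.78, -12.15 to -7.25). Ldhal6b had 7 and 277 counts (log2 -5.23), Pgk2 had 1 and 91 counts (log2 -5.95) and Gapdhs 1 and 76 counts (log2 -5.69). Pdha2 had 0 counts in the knockdown and 83 in the control library, at least 28.1-fold lower.

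Of 9 genes of the hypoxia response, 2 were higher and 2 lower, 22.2% each way. Among all loci 29.7% were higher and 32.5% lower, so the list held no excess of called genes. Hif1a, the oxygen-regulated factor known for inducing glycolytic genes, had 12571 counts in the knockdown and 2218 in the control library (log2 2.48, 2.42 to 2.55). Egln3, a prolyl hydroxylase that is itself hypoxia-induced, had 931 counts in the knockdown and 21 in the control library (log2 5.42, 4.83 to 6.15). Epas1, the related factor of endothelial cells, was lower at -1.01, as was the inhibitor gene Hif1an at -0.83. The partner gene Arnt was at -0.03, and Egln1 and Vhl were at 0.36 and 0.19, these 3 named after their values were seen, as were Pgk2 and Gapdhs. The 59 members together made up 1.42% of all counts in the knockdown and 1.05% in the control library.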
